A study of Homo sapiens with 5 samples.

Results

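The collagen genes are all genes named alone by a probe set of the array whose symbol has the form COL, number, A, number. Of the 19775 genes so named 43 met that rule, with 112 probe sets. COL17A1 has a symbol of that form but no probe set annotated to it alone, and it was not analysed. The cells were IMR32, a human neuroblastoma line in long use, with a stable construct from which doxycycline switches on a short hairpin RNA (shRNA) against the MEIS1b form of the homeobox gene MEIS1. All 5 samples are of this 1 line with the hairpin construct, grown in the same serum-containing medium: 1 array at 0 h without doxycycline, and 1 array each after 24, 48, 96 and 192 h of doxycycline. Whether the line is 1 clone is not given in the labels, and the 5 arrays include neither a doxycycline-treated line lacking the hairpin nor a later array of undosed cells, so hairpin induction, doxycycline and time in culture cannot be told apart. Each time point is a single RNA sample on an Affymetrix U133 Plus 2.0 array and none was replicated.

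Collagens are secreted or membrane proteins in which 3 chains, from 1 gene or several, wind into a triple helix. Fibrillar collagens assemble into the tension-bearing fibres of connective tissue and cartilage, type IV collagen forms the sheet of basement membranes, and FACIT collagens (fibril-associated collagens with interrupted triple helices) sit on fibril surfaces. The remaining types include the microfibrils of type VI, the anchoring fibrils of type VII and a small group that spans the plasma membrane. In neuroblastoma, collagen deposition is best known from the tumour stroma and from tumour cells in a mesenchymal state.

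The labelled cell type was checked against its markers. Of 10 neuroblastoma markers, 8 were above the signal minimum used for testing, 1 of which passed as higher (CHGA), and GATA3 and MYCN read 2793.1 and 4248.1 at 0 h. MEIS1, the target of the hairpin, read 1052.0, 851.5, 847.2, 857.0 and 786.6 at 0, 24, 48, 96 and 192 h and did not pass the trend test (fitted log2 change -0.33 ± 0.14, SE; limma adjusted p = 0.251). The signals of marker lists of other cells, summed over each list, stayed low on all 5 arrays: 25.7 to 51.6 for the 4 of 7 Schwann cell genes named on the array, 38.9 to 78.9 for 5 endothelial genes, 45.5 to 60.5 for 5 blood genes and 34.1 to 55.0 for 5 epithelial genes. Of 15 fibroblast and mesenchymal markers 9 were above the minimum and their list summed to between 4069 and 5955.5, most of it VIM and TWIST1. The other tested members PDGFRA, FN1, S100A4, THY1, PDGFRB, ACTA2 and TAGLN read 457.3, 355.7, 100.8, 70.6, 54.5, 41.3 and 20.4 at 0 h. DCN, LUM, FAP, TWIST2, PRRX1 and POSTN of this list averaged below the minimum. Their highest readings were 19, 12.7, 7.0, 11.1, 17.8 and 7.6. Across arrays the median log2 signal of all probe sets differed from that of the 0 h array by -0.12, 0.05, 0.07 and 0.01 on the 24, 48, 96 and 192 h arrays. Poly-A spike-in transcripts, added before labelling, read 0.10 higher at 24 h and 0.45, 0.61 and 0.25 lower at 48, 96 and 192 h than at 0 h on the log2 scale.

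Each gene was represented by its brightest probe set, and a gene whose mean signal reached 17.9 (the median over every probe set and array) was tested for a trend over the arrays in time order, in equal steps (limma on log2 of the signal plus an offset of 4.7, Benjamini-Hochberg adjustment over 11944 genes). The fitted log2 change runs over the whole course, with its SE, and a gene is said to have risen or fallen where the adjusted p was under 0.05. Because no time point was repeated, a p-value here weighs a trend against deviations from a straight line and not against replicate spread. Those deviations are the gene's own, pooled by limma with those of other genes of similar brightness (residual degrees of freedom 3, prior 9.07). Of the 43 collagen genes 21 were above the minimum and were tested: 9 of 11 fibrillar, 2 of 6 basement membrane, 3 of 10 FACIT and 7 of 16 other collagens.

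Among the 21 tested collagens 3 fell and 1 rose. Of all 11944 genes tested 1.47% fell and 2.02% rose, or 3.49% in either direction, and with array medians set equal 45.69% of the called genes rose, against 57.79% in the fit used here. The collagens that fell were COL1A1, COL2A1 and COL25A1, and the one that rose was COL13A1. At an unadjusted p under 0.05 there were 9 collagens of the 21, against 17.0% of all genes. The median fitted log2 change was -0.11 over the tested collagens and 0.003 over all tested genes. By class the median was -0.49 for fibrillar, -0.36 for basement membrane, 0.04 for FACIT and 0.39 for the other collagens, so the family had no common direction. In these bulk samples, fewer expressing cells and less RNA per cell cannot be told apart. All 4 calls were lost without the signal minimum (0 collagens called among 19775 genes) and without the dependence of the variance on brightness in the limma fit (0 called).

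**Figure D1:**
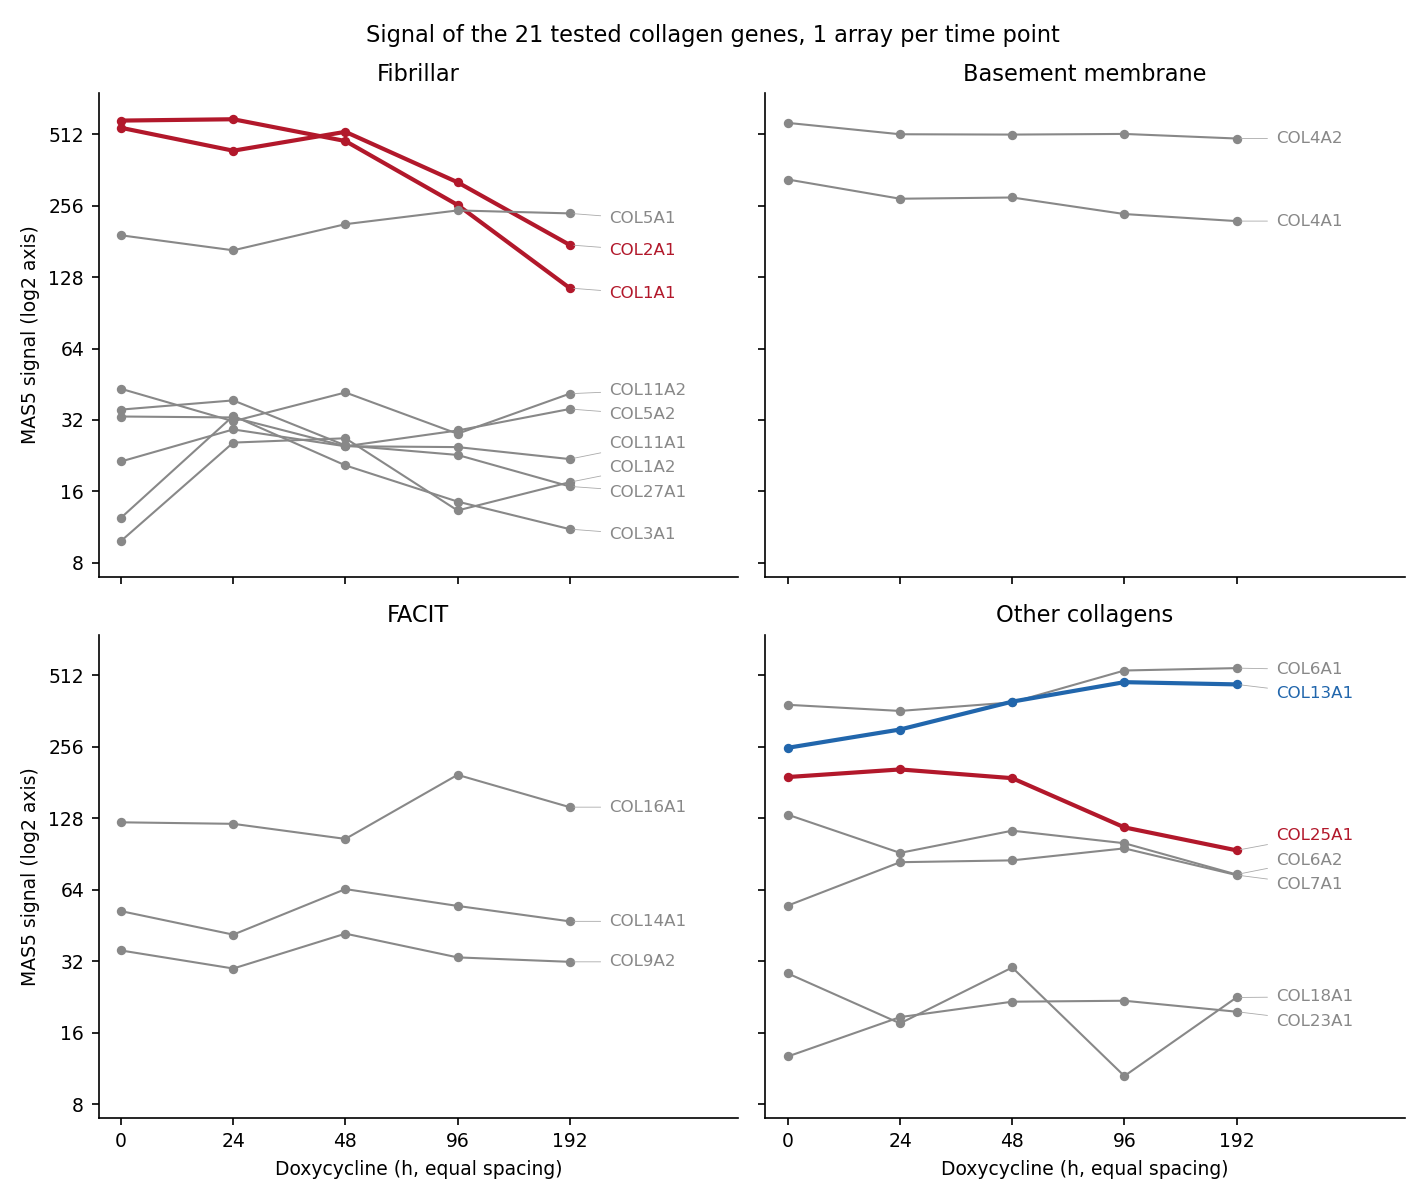
MAS5 signal (vertical axis, log2 scale) of the 21 tested collagen genes at 0, 24, 48, 96 and 192 h of doxycycline (horizontal axis, equal spacing), 1 point per array, in panels by class. COL1A1, COL2A1 and COL25A1 (red) fell and COL13A1 (blue) rose; genes in grey did not pass the trend test.

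COL1A1 encodes the alpha 1 chain of type I collagen, the main fibre protein of bone, skin and tendon. From the first array to the last (0, 24, 48, 96 and 192 h) its signals were 584.4, 592.0, 479.2, 257.8 and 115.1. The reading was thus near its starting value at 24 h, and the 96 and 192 h arrays were lower than the first 3. The fitted log2 change was -2.31 ± 0.31 (SE; limma adjusted p = 0.00251), and the 192 h signal was 20.3% of that at 0 h on the scale with the offset. Most of the observed difference lay after 48 h, with a log2 difference of -2.01 at 192 h from 48 h and -0.28 at 48 h from 0 h. All 4 COL1A1 probe sets above the minimum had a negative fitted change. The brightest and the next brightest passed in a fit over all probe sets (-2.31 and -1.46), while the other pair had -0.42 and -0.51 and did not. Affymetrix marks the probe set at -0.42 as able to cross-hybridise (suffix x). The size of the COL1A1 change accordingly depended on the probe set: averaged over the 4 it was -1.18 (adjusted p = 0.0142), and without the 192 h array it was -1.52 (adjusted p = 0.0235).

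The partner chain of type I collagen, COL1A2, was close to the signal minimum. It read 9.9, 25.7, 26.8, 13.3 and 17.5 at 0, 24, 48, 96 and 192 h. Its fitted log2 change was 0.18 ± 0.56 (adjusted p = 0.924), so these arrays could not show whether COL1A2 followed COL1A1. COL3A1, the type III chain of soft connective tissue, was as dim, at 12.4, 33.3, 20.6, 14.5 and 11.1 (fitted change -0.49 ± 0.57, adjusted p = 0.743). For COL3A1 a probe set that Affymetrix marks as able to cross-hybridise (suffix x) was the brightest.

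COL2A1 encodes the type II chain, which forms the fibrils of cartilage. In the same order its signals were 544.8, 436.3, 524.0, 321.2 and 174.9. The 48 h reading was close to that at 0 h, and the 96 and 192 h readings were the lowest. The fitted log2 change of COL2A1 was -1.47 ± 0.28 (limma adjusted p = 0.0126), with 32.7% of the 0 h value at 192 h on the scale with the offset. Its other probe set read 283.0, 204.8, 259.2, 138.4 and 64.6 and also passed in the fit over all probe sets (fitted change -1.86 ± 0.34, adjusted p = 0.0162). Both probe sets were lower at 24 h than at 48 h. The COL2A1 call rested on the last array: without the 192 h array the fitted change was -0.80 with an adjusted p of 0.158.

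Type V chains sit within type I fibrils and limit their width, and 2 of the 3, COL5A1 and COL5A2, were tested. The brightest COL5A1 probe set read 192.0, 166.0, 213.9, 244.4 and 237.5 and did not pass (fitted log2 change 0.46 ± 0.19, limma adjusted p = 0.23). The other COL5A1 probe sets read 102.4, 126.1, 129.5, 193.2 and 221.6, and 119.4, 118.1, 146.5, 193.0 and 204.5. Both of these passed in the fit over all probe sets, with fitted changes of 1.10 ± 0.19 (adjusted p = 0.0134) and 0.88 ± 0.19 (adjusted p = 0.0374). In that fit 2.05% of 22493 probe sets passed, and 8 of 37 collagen probe sets did, 5 lower and 3 higher. These were 2 each of COL1A1, COL2A1 and COL5A1 and 1 each of COL13A1 and COL25A1. Probe sets of 1 gene measure the same RNA on the same arrays and are not independent of one another. With the gene's value taken as the mean over its probe sets, COL5A1 rose (0.81, adjusted p = 0.0255). COL5A2 was dim, at 35.6 at 192 h and 21.4 at 0 h, with a fitted change of 0.50 ± 0.38 (adjusted p = 0.571).

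None of the remaining fibrillar collagens passed. COL27A1, a fibrillar chain of cartilage, read 35.4, 38.7, 25, 22.8 and 16.8, with a fitted log2 change of -0.98 ± 0.38 and an adjusted p of 0.211. The type XI chains, which nucleate cartilage fibrils with type II, were at 21.9 to 33.1 for COL11A1 (fitted change -0.55 ± 0.37) and 28.0 to 43.3 for COL11A2 (-0.11 ± 0.37). Summed over the brightest probe sets of the 11 fibrillar genes, the signal was 1489.0, 1391.1, 1386.4, 973.7 and 682.2 at 0, 24, 48, 96 and 192 h. This is a sum of probe set brightness, in which COL1A1 and COL2A1 are the brightest members at 0 h. Over all 43 genes without COL1A1 and COL2A1 it was between 2581.6 and 2951.0 at the induced times, against 2671.9 at 0 h.

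**Figure D2:**
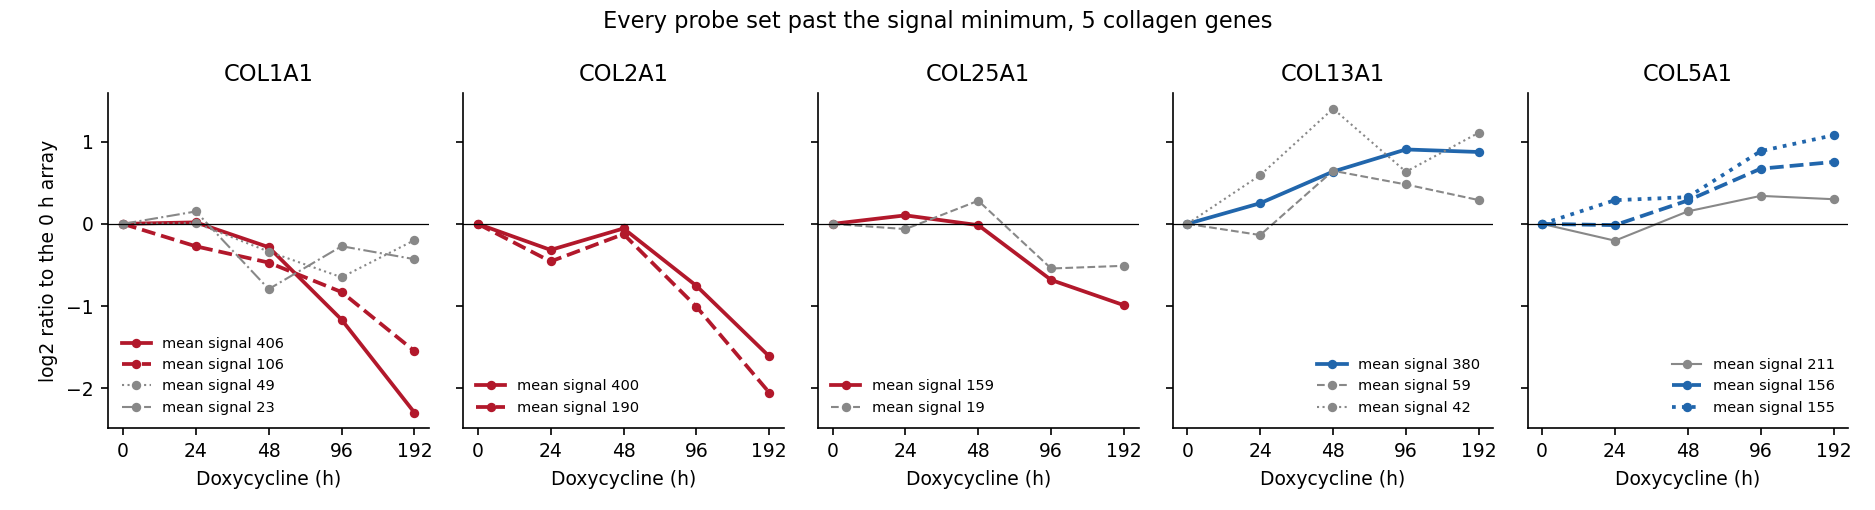
The log2 ratio to the 0 h array (vertical axis, offset of 4.7) against hours of doxycycline (horizontal axis, equal spacing), 1 line per probe set above the signal minimum, for 5 genes. Red and blue lines passed the trend test over all probe sets; the COL1A1 lines end between -2.30 and -0.20, both COL2A1 lines are lowest at 192 h, and the 2 dimmer COL5A1 probe sets rose while the brightest did not pass.

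The membrane-spanning collagens included 1 gene in each direction. COL13A1, which encodes a plasma membrane collagen found at the neuromuscular junction and other cell contacts, read 253.7, 302.9, 397.0, 479.5 and 469.2 at 0, 24, 48, 96 and 192 h. It was higher at each of the 4 induced times than at 0 h and reached its top by 96 h. The fitted log2 change was 0.96 ± 0.16 (limma adjusted p = 0.0071). The observed log2 difference was 0.64 at 48 h from 0 h and 0.24 at 192 h from 48 h, against -0.28 and -2.01 for COL1A1, and this difference in timing was not tested. Its other probe sets above the minimum had fitted changes of 0.48 and 0.90 and did not pass. Both carry the suffix x, by which Affymetrix marks probe sets able to cross-hybridise. The COL13A1 call was lost without the 0 h array (0.86, adjusted p = 0.104), with time in hours (adjusted p = 0.0755), with the mean over its probe sets (adjusted p = 0.127) and with a poly-A covariate (the spike-in level of each array; 0.74, adjusted p = 0.0705).

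COL25A1, a neuronal membrane collagen whose shed ectodomain is found in amyloid plaques, read 191.0, 205.6, 188.9, 117.2 and 93.8. The first 3 arrays lay between 188.9 and 205.6 and the 96 and 192 h arrays were lower. The fitted log2 change was -1.11 ± 0.24 (limma adjusted p = 0.0244), with 50.3% of the 0 h value at 192 h on the scale with the offset. A dim probe set of the gene had a fitted change of -0.60. The COL25A1 call was lost without the 24, 96 or 192 h array (adjusted p = 0.0628, 0.0634 and 0.18), with the poly-A covariate (0.0855) and with the mean over its probe sets (0.154). The other membrane collagen tested, COL23A1, was dim, at 12.7 to 21.8 (fitted change 0.46 ± 0.45, adjusted p = 0.689).

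The promoters of COL25A1 and COL13A1 are shown because these are the called collagens with an entry in the RefSeq promoter table, and that of COL5A1 because 2 of its probe sets passed although the gene, by its brightest probe set, did not. For each, the 250 bases before the gene's start are given on the gene's strand, build GRCh38.p14, and capitals mark matches on either strand to GGGCGG (the GC box) or CCAAT (the CCAAT box). They lie at chr4:109302659-109302908 (minus strand) for COL25A1, chr10:69801656-69801905 (plus strand) for COL13A1 and chr9:134641553-134641802 (plus strand) for COL5A1.
COL25A1: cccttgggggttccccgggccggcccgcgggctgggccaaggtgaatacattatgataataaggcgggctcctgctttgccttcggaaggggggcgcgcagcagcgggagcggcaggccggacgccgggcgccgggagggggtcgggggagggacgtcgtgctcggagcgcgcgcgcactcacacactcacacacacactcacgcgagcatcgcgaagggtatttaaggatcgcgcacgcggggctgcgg
COL13A1: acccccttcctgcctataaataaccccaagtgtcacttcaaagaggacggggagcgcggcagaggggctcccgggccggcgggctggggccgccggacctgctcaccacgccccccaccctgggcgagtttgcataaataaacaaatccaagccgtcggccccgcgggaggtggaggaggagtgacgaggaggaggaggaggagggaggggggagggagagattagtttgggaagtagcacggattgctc
COL5A1: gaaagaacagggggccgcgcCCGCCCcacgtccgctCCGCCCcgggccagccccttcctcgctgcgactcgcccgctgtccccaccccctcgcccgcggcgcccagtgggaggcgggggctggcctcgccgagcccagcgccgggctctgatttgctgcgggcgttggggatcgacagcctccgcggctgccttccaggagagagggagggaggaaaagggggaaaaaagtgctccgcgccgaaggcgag
The COL25A1 and COL13A1 windows held neither of these motifs; COL25A1 has a CCAAT match in the stretch after its start, which is not shown. The COL5A1 window held GGGCGG on the opposite strand at 2 places, starting 230 and 214 bases before the start. TGACAG, the core of the site bound by MEIS proteins, was in none of the 3 windows.

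Over the family, 31 of 43 collagens had a promoter window of 250 bases before to 50 after the start (the first listed for each gene). TGACAG was in 5 of the 31 (16.1%), on either strand, against 15.9% of 27305 promoters in the table. Those 5 were COL9A2, COL19A1, COL10A1, COL28A1 and COL5A3, of which COL9A2 alone was tested (fitted log2 change -0.06 ± 0.35). GGGCGG was in 18 of the 31 (58.1%) against 44.6% of all promoters, and CCAAT in 9 (29.0%) against 35.7%. A match is a description of sequence, not of binding.

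Type VI collagen is a microfibril built from COL6A1, COL6A2 and one further chain such as COL6A3. COL6A1 read 384.9, 362.7, 394.1, 536.9 and 549.5, so the 96 and 192 h arrays were above the first 3. Its fitted log2 change of 0.63 ± 0.16 did not pass (limma adjusted p = 0.0589). It passed in 1 of 16 alternatives, with the signal minimum doubled (adjusted p = 0.0477). With the mean over its probe sets the limma adjusted p was 0.272. The dimmer COL6A1 probe sets above the minimum had fitted changes of 0.43 and 0.17 and did not pass. COL6A2, which lies 93063 bases from COL6A1 on chromosome 21, read 132.5, 91.5, 113.5, 100.5 and 74.2 (fitted change -0.59 ± 0.25, adjusted p = 0.255). The other COL6A2 probe set was dim and had a fitted change of 0.44, and COL6A2 was the only 1 of 11 tested collagens with several probe sets above the minimum whose probe sets differed in sign. COL6A3 was below the minimum, at 1.4 to 12.1.

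The basement membrane pair COL4A1 and COL4A2, whose chains form the common type IV trimer, was bright throughout. COL4A1 read 329.9, 273.8, 277.1, 236.0 and 220.4, lower at each induced time than at 0 h, with a fitted log2 change of -0.54 ± 0.15 that did not pass (limma adjusted p = 0.0817). COL4A2 read 571.4, 511.8, 510.2, 513.4 and 491.1 (-0.17 ± 0.13, adjusted p = 0.587). Its induced arrays lay within 1 narrow band below the 0 h reading. The second COL4A1 probe set had a fitted change of -0.62 and the second COL4A2 probe set -0.35, neither of which passed. The genes start 126 bases apart and run in opposite directions, and the stretch between them is shown because it lies upstream of both. It lies at chr13:110307158-110307283 (build GRCh38.p14, plus strand, toward COL4A2), with a CCAAT and a GGGCGG match in capitals, 105 and 65 bases before COL4A2.
COL4A1 to COL4A2: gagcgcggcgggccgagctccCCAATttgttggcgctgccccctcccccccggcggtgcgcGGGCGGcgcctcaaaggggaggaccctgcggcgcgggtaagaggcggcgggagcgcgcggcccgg
The other head-to-head pairs of the type IV family were not above the minimum on average: COL4A3 read at most 17.9, COL4A4 at most 20.9, COL4A5 at most 8.8 and COL4A6 at most 11.8.

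None of the 3 FACIT collagens tested passed. COL16A1 was the brightest, at 123.1, 121.3, 104.8, 195.1 and 142.6, with its highest reading at 96 h (fitted log2 change 0.43 ± 0.28, limma adjusted p = 0.479). COL14A1 read 41.4 to 64.4 (0.04 ± 0.32) and COL9A2, a chain of the collagen that decorates cartilage fibrils, 29.8 to 41.8 (-0.06 ± 0.35). Among the other collagens, COL7A1, the anchoring fibril chain, read 54.9, 83.6, 85.1, 95.6 and 73.8. It was higher at each induced time than at 0 h, and its fitted change of 0.39 ± 0.29 did not pass (adjusted p = 0.56). COL18A1, which carries the endostatin fragment, read 10.5 to 30.1 (-0.45 ± 0.53).

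**Figure D3:**
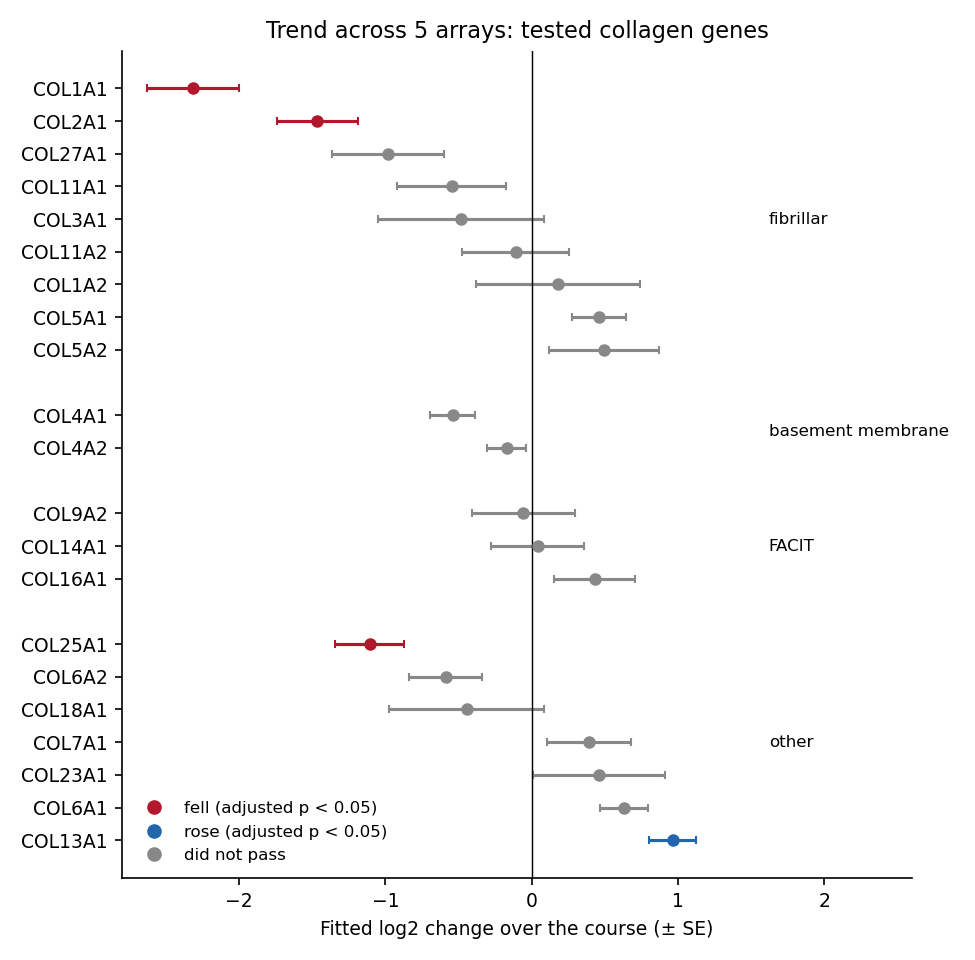
Fitted log2 change over the course (horizontal axis) with its SE (bars) for the 21 tested collagen genes, grouped by class. COL1A1, COL2A1 and COL25A1 (red) fell, COL13A1 (blue) rose, and the fitted changes of the grey genes run from -0.98 for COL27A1 to 0.63 for COL6A1.

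The remaining 22 collagens averaged below the minimum and were not tested. Besides COL4A3 to COL4A6 and COL6A3 these were the fibrillar COL5A3 and COL24A1, the FACIT genes COL9A1, COL9A3, COL12A1, COL19A1, COL20A1, COL21A1 and COL22A1, and COL6A5, COL6A6, COL8A1, COL8A2, COL10A1, COL15A1, COL26A1 and COL28A1. Their highest single reading was 29.9 (COL8A2 at 48 h), against means of 18.4 and 18.6 for COL3A1 and COL1A2, the dimmest genes tested. The minimum left these genes out of the fit, so whether they changed was not assessed, and this does not show that they are silent.

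Without a test, and with the offset of 4.7 added to each signal, the 192 h array was at most 0.5 times the 0 h array for 2 of 21 tested collagens, COL1A1 and COL2A1, against 1.93% of all tested genes. On the same scale it was at least 2 times the 0 h array for 0 collagens, against 2.30% of all tested genes. A fitted change of at least 2-fold in either direction was reached by 3 collagens, COL1A1, COL2A1 and COL25A1, against 4.06% of all tested genes.

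The genes that fold, export, crosslink, bind and degrade collagen were counted in the same fit. Of 68 genes in 5 lists 49 were tested, 2 fell and 0 rose, against 1.47% and 2.02% of all genes. At an unadjusted p under 0.05 there were 14 of the 49, against 17.0% of all genes. Both that fell belong to the 22 tested enzymes and chaperones of the endoplasmic reticulum, whose median fitted log2 change was -0.13. SERPINH1 encodes HSP47, the chaperone dedicated to procollagen. It read 730.0, 640.3, 443.4, 457.0 and 334.0, lower at each induced time than at 0 h, with a fitted change of -1.09 ± 0.16 (limma adjusted p = 0.00334). SERPINH1 passed without each array in turn (-1.17 to -1.01, adjusted p up to 0.0416).

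KDELR3, a receptor that returns chaperones such as HSP47 to the endoplasmic reticulum, read 119.0, 108.9, 95.5, 56.2 and 27.6. Each reading was lower than the one before. Its fitted log2 change was -1.91 ± 0.32 (limma adjusted p = 0.00677), and without the 192 h array it was -1.30 with an adjusted p of 0.0766. The calls for SERPINH1 and KDELR3 were lost, like those of the collagens, without the signal minimum (adjusted p = 0.0676 and 0.128) and without the brightness-dependent variance (0.0902 for both).

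The largest fitted changes of the enzyme and chaperone list that did not pass were those of the prolyl isomerases FKBP14 (-0.74, limma adjusted p = 0.113) and FKBP7 (-0.60, 0.0771) and of P3H4 (0.57, 0.263), a partner of the hydroxylases. CRTAP, of the prolyl 3-hydroxylation complex, had -0.57 (adjusted p = 0.068). Abundant folding enzymes had small fitted changes, 0.004 for PPIB, -0.12 for P4HB and 0.06 for HSPA5. Of 9 export genes 0 passed, and the COPII coat gene SEC24D had -0.63 (adjusted p = 0.139), SEC23A -0.29 and TMED2 -0.24.

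Of 9 tested genes for propeptide removal and crosslinking 0 passed, with a median of -0.33. The lysyl oxidase family was split: LOXL2 had -0.64 (limma adjusted p = 0.185) and LOXL1 0.46 (0.23), while PCOLCE, which enhances removal of the procollagen tail, had -0.43 (0.442). LOXL1 read 819.7, 861.2, 1151.2, 1260.0 and 1011.2, and it passed as higher when the 192 h array was left out. Of 5 receptors 0 passed, with the adhesion receptor ADGRG1 at 0.79 (adjusted p = 0.275), ITGB1, the shared integrin beta chain, at -0.31 and ITGA1 at -0.22. Of 4 degradation genes 0 passed, with CTSK, a collagen-cleaving cathepsin, at 0.41 (adjusted p = 0.337), MMP9 at -0.29 and MMP14 at 0.16.

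**Figure D4:**
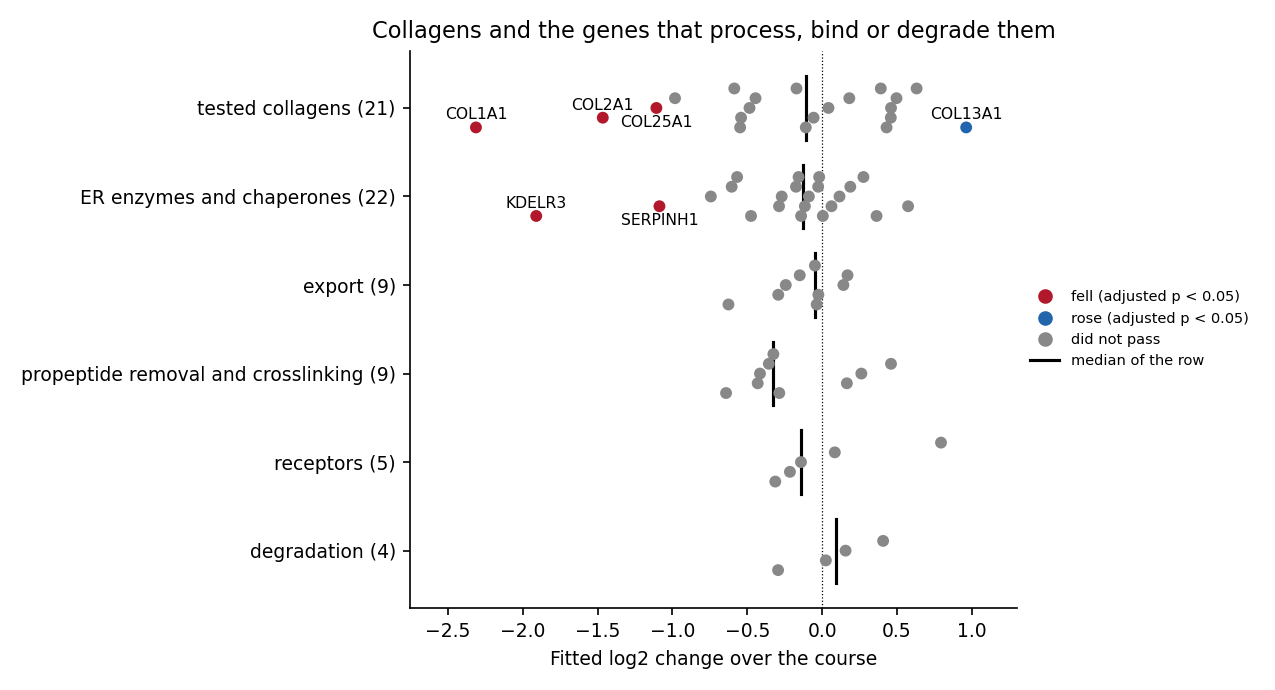
Fitted log2 change over the course (horizontal axis) for the tested collagens and for the tested genes of 5 lists, 1 point per gene, with the number tested in parentheses and a black line at each median. SERPINH1 and KDELR3 are the genes of the 5 lists that fell, and no gene of the lists rose.

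Among the fibroblast and mesenchymal markers, PDGFRA, a growth factor receptor of mesenchymal cells, fell beside COL1A1. It read 457.3, 359.7, 297.2, 164.5 and 131.6 (fitted log2 change -1.85 ± 0.18, limma adjusted p = 2.79e-04). The 8 other tested markers of that list did not pass. S100A4 was at -0.83, TWIST1 at -0.57 (limma adjusted p = 0.0559), PDGFRB at -0.50, VIM at -0.26 and FN1 at -0.20. TAGLN at -0.07 ± 0.49 and THY1 at -0.04 ± 0.29 were close to no change, and ACTA2 was at 0.45. Of the 9 tested markers 8 had a negative and 1 a positive fitted change, against 5939 negative and 6005 positive among all 11944 tested genes. The 1 marker that fell stands beside 1.47% of all tested genes. The part of this list in the collagen changes was not tested.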

How the data were processed

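Total RNA of 5 cultures was measured on Affymetrix U133 Plus 2.0 arrays. Per the submitters' processing notes MAS5 and GCOS were used, without versions. Neither the log base nor the floor is stated: the deposited values were taken to be on a log2 scale because, once unlogged, 100% fell on multiples of 0.1 (tolerance 0.01), with a floor at a signal of 1. MAS5 background subtraction makes dim signals noisy. The number of arrays limits the precision. Of 54675 probe sets 41097 named 1 gene, 1801 several (not used) and the rest none; 41043 were found by gene identifier in RefSeq (GRCh38.p14), changing 0 symbols.

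Signals were returned to the linear scale, 4.7 (the median 25th percentile) was added and log2 taken. Changes are on this scale, which understates those of dim genes. The brightest probe set per gene was fitted in limma 3.58.1 (R 4.3.3, two-sided, eBayes with trend, residual degrees of freedom 3 and prior degrees of freedom 9.07), a script tested on simulated data. Members, lists and settings were chosen with earlier results of these data known. All analysed collagens are named. List genes are named where they passed, with the 3 largest other changes per list. Some further list genes and LOXL1, as well as the mesenchymal markers other than PDGFRA, were chosen after their values were seen. Alternatives changed the offset, minimum, scaling, time axis, moderation, covariate, arrays and probe set rule. Sequences are from RefSeq; protein features were not analysed here.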

Additional observations from a re-analysis of the deposited data

How the results depend on the processing

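With 1 array per time point nothing here has a replicate check, and low signal limits what could be seen for the 22 untested collagens and for dim tested ones such as COL1A2. No paired analysis was possible because each time point has 1 array. The 3 collagens that fell became 0 without the signal minimum and without the brightness-dependent variance. They became 2 with the poly-A covariate and with the mean over probe sets, in both cases without COL25A1. They were 1 to 3 when 1 array was left out (1 without the 192 h array). The 1 that rose became 0 under the first 2 settings, with time in hours and with the poly-A covariate. The count was 2 with the minimum doubled, and 0 to 1 when 1 array was left out (0 without the 0 h array). With the mean over probe sets 1 collagen still rose, but it was COL5A1 and not COL13A1. The 2 list genes that fell became 0 under the first 2 settings and 1 to 2 when 1 array was left out, and 0 to 1 list genes then rose (LOXL1, without the 192 h array). Over all genes, 176 fell and 241 rose; these were 5 and 16 without the minimum, 8 and 14 without the brightness-dependent variance, 112 and 118 with the covariate, and 69 to 167 and 121 to 249 when 1 array was left out. The fitted log2 change turned sign, without passing, for COL14A1 (-0.0464 with medians set equal, -0.0272 with quantile normalization, -0.0546 with time in hours, -0.36 with the covariate, -0.11 to 0.31 when 1 array was left out) and, when 1 array was left out, for COL11A2 (-0.52 to 0.21), COL1A2 (-0.87 to 0.46), COL7A1 (-0.14 to 0.91) and COL9A2 (-0.16 to 0.0703). The median over tested collagens stayed between -0.28 and -0.03 in all 16 alternatives, and TGACAG was in 16.1% of collagen promoters against 15.9% of all in the whole window, and in 16.1% against 13.1% in the 250 bases before the start. The cause of these differences was not tested. COL13A1, COL1A1, COL2A1 and COL25A1 kept their sign in all 16 alternatives and passed in 10, 14, 13 and 9.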

Other observations

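SOX9, a transcription factor known to activate COL2A1 in cartilage, rose while COL2A1 fell. The SOX9 signals, in time order, were 130.1, 138.7, 122.5, 278.0 and 413.5 (fitted log2 change 1.70 ± 0.32, SE; limma adjusted p = 0.0122). SOX9 was highest on the 96 and 192 h arrays, where COL2A1 had its lowest signals, 321.2 and 174.9. SOX9 was picked out after its values were seen, and no relation between the genes was tested.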
